A study of Homo sapiens with 6 samples.

Results

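The MYC, MAX and MXD network was followed in BT-549 cells, a widely used line derived from triple-negative breast cancer (TNBC), after silencing of the lncRNA NEAT1. The 10 genes were taken by symbol (MYC, MAX, MXD1, MXD3, MXD4, MXI1, MNT, MGA, MLX and MLXIP) from 25545 genes with expression values. Cells were transfected with a control siRNA (CsiRNA) or an siRNA against NEAT1 (NEAT1siRNA) and were collected 48 h later, with 3 libraries in each group. The sample titles write the cells as BT-549/tet-NEAT1CsiRNA and BT-549/tet-NEAT1siRNA, and no inducing agent is named for either group. Both groups are 1 cell line and 1 siRNA each, so the values do not separate silencing of NEAT1 from other effects of that siRNA. The labels speak of cultures in triplicate. The p-values rest on the spread between these cultures, which the moderated test named below draws toward that of other genes.

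MYC and its relatives are basic helix-loop-helix leucine zipper transcription factors that bind DNA in pairs. MYC pairs with MAX at E-boxes (CACGTG) and activates genes of growth, ribosome production and metabolism, whereas the MXD proteins, MNT and MGA pair with MAX at the same sites and repress. In a parallel branch, MLX pairs with MLXIP (MondoA), which responds to glucose 6-phosphate and drives TXNIP. In TNBC, MYC is a frequently amplified or overexpressed oncogene.

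Expression is given as TPM (reads divided by the length of the transcript and set to the same total in every library). Groups were compared with limma's moderated test (two-sided) on log2(TPM + 1) over 10721 genes with a mean of at least 1 TPM, and a gene was called at a Benjamini-Hochberg adjusted p under 0.05. Fold changes are on that log2 scale, and for genes of low TPM they come out smaller than the ratio of the TPM values. All 10 network genes passed the filter on the mean of all 6 libraries. Reads were recovered from the deposited tables and ran from 15788161 to 20342568 per library. Of the 4 mesenchymal markers, VIM, FN1, CDH2 and CD44 each had at least 56.3 TPM in every library. The hormone receptor gene ESR1 was listed at 0 and PGR did not exceed 0.00676 TPM, the epithelial markers EPCAM, CDH1 and KRT8 did not exceed 0.283 TPM, and ERBB2 ran from 5.76 to 6.36 TPM. Markers of leukocytes (PTPRC), endothelium (PECAM1) and liver (ALB) did not exceed 0.0580 TPM. The relation of GC content to each gene's deviation from its group mean differed between libraries. Spearman rho ran from -0.34 to 0.47 in CsiRNA and from -0.73 to 0.68 in NEAT1siRNA. Taking out the group means removes any difference between the groups, so these values cannot show whether GC content separates them. The silenced gene NEAT1 had 13.4, 7.68 and 10.8 TPM with CsiRNA and 4.36, 2.96 and 2.73 TPM with NEAT1siRNA, which left 31.5% of the control mean. Some TPM values are listed at 0 in all libraries for genes that every cell uses, such as EIF4A1, so a value of 0 is reported here only as listed.

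NEAT1 silencing left the network with less MYC, MGA and MLXIP mRNA and with more MXD4 mRNA, whereas no change in MAX and MLX passed the test. Of the 10 genes, 3 fell and 1 rose past the threshold, beside 14% of all genes tested in either direction, 8.98% lower and 4.99% higher. The median log2 fold change of the network genes was -0.02, and that of all genes tested was -0.04. In 5 of the 10 genes the CsiRNA and NEAT1siRNA values did not overlap, and that share was 30.3% over all genes tested. The balance of directions over all called genes varied with scaling, with 535 higher and 963 lower as deposited, 1082 and 1109 after quantile normalization, 1158 and 954 after centring on the median, and 918 and 1174 after leaving out 4 short noncoding RNAs. The calls of MYC, MGA, MLXIP and MXD4 held under each of these scalings, with the same direction. With 1 library left out, MYC was called in 6 of 6 fits, MGA and MLXIP in 4 each and MXD4 in 1. With no filter on TPM, or at an adjusted p under 0.01 from limma, MYC alone of the 10 genes was called.

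**Figure D1:**
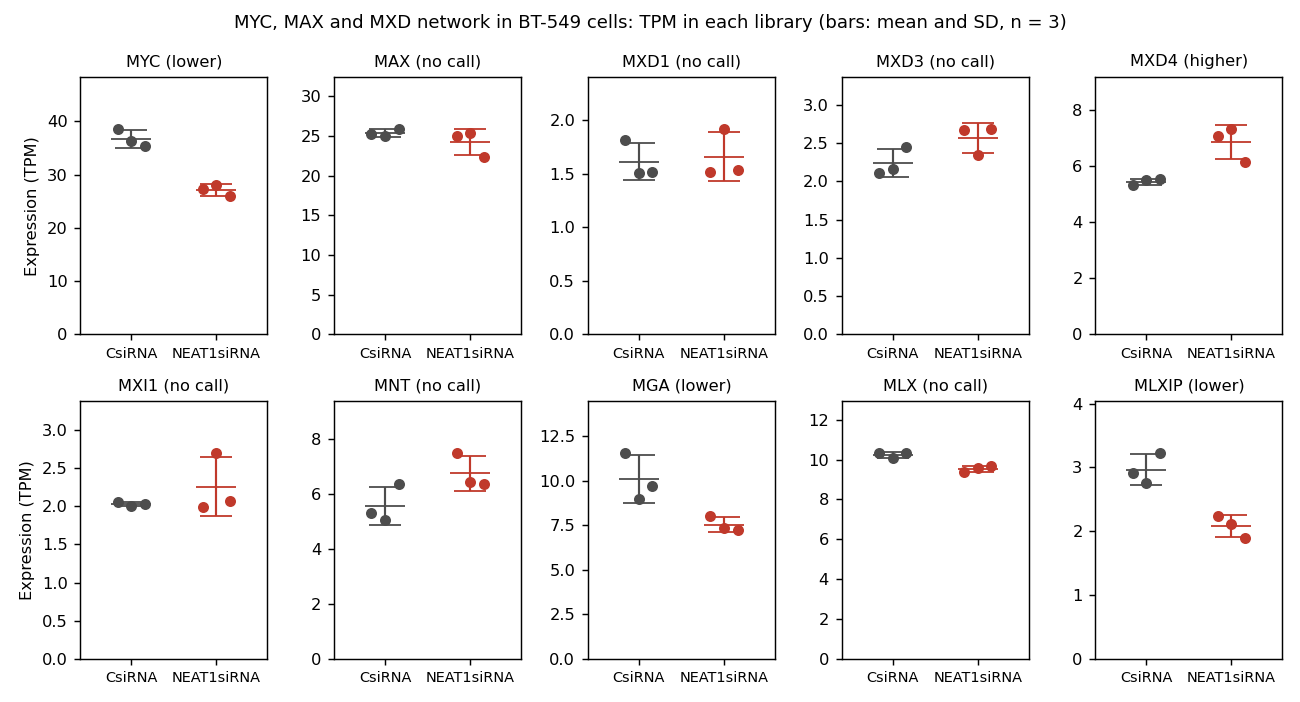
TPM of each network gene in the 3 CsiRNA and 3 NEAT1siRNA libraries (points), with the mean and SD of each group (bars). Each axis starts at 0, and the heading of a panel gives the call at an adjusted p under 0.05. MYC, MGA and MLXIP lay lower in every NEAT1siRNA library, and MXD4 lay higher.

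MYC, the activating partner of MAX, lies on the plus strand of chromosome 8 of GRCh38 from 127735434 to 127742951. Its expression was 38.6, 36.3 and 35.3 TPM in the CsiRNA libraries and 27.2, 28.1 and 25.9 TPM in the NEAT1siRNA libraries. The groups were separated by a gap wider than the spread within either of them. The mean decreased from 36.7 ± 1.72 to 27.1 ± 1.10 TPM (SD, n = 3 each), to 73.7% of the control. The log2 fold change of MYC was -0.43 (SE = 0.09, with an adjusted p of 0.00197 from limma). MYC had an estimated 2383 to 3971 reads in a library, as recovered reads at this depth mostly did not come out as whole numbers. Fits that dropped 1 library gave values from -0.45 to -0.39, and MYC was called in 6 of 6 of them. In bulk libraries, fewer cells with the transcript and less of it per cell cannot be told apart, here and for each gene that follows.

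PVT1, the long noncoding RNA gene that follows MYC on chromosome 8 (plus strand, from 127794526 to 128187101), had 8.95, 7.23 and 7.60 TPM with CsiRNA and 5.97, 5.60 and 6.13 TPM with NEAT1siRNA. The PVT1 values did not overlap between the groups. PVT1 fell to 74.5% of the control (log2 fold change -0.37, adjusted p = 0.0119 from limma), beside 73.7% for MYC. PVT1 was no longer called without CsiRNA replicate 1 (adjusted p = 0.0984 from limma). Of the MYC relatives outside the network list, MYCN was listed at 0 in all libraries and MYCL ran from 0.128 to 0.209 TPM with CsiRNA and from 0.280 to 0.388 TPM with NEAT1siRNA, a mean of 26.5 reads that was under the filter. MYC was thus the one MYC paralog above the filter.

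MAX, the shared partner of MYC and of the repressors, had 25.2, 24.97 and 25.9 TPM with CsiRNA and 25.02, 25.4 and 22.4 TPM with NEAT1siRNA. The ranges overlapped, and NEAT1siRNA replicate 3 was the lowest of the 6 libraries. The log2 fold change of MAX was -0.06, with a 95% interval of -0.25 to 0.12 (adjusted p = 0.699 from limma), so a fall of the size seen for MYC lay outside its interval. No alternative setting called MAX.

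The MXD family (MXD1, MXD3, MXD4 and MXI1) encodes proteins that pair with MAX and recruit the SIN3 co-repressor, and that are known for their rise as cells stop dividing and differentiate. MXD4 had 5.33, 5.50 and 5.53 TPM with CsiRNA and 7.08, 7.35 and 6.17 TPM with NEAT1siRNA. The 3 control values lay close together, and each NEAT1siRNA value was above them. The mean of MXD4 increased from 5.46 ± 0.106 to 6.87 ± 0.619 TPM (SD, n = 3 each), to 126% of the control, with a log2 fold change of 0.28 (SE = 0.09, with an adjusted p of 0.0468 from limma). The value was close to the threshold. The call held without NEAT1siRNA replicate 3 (adjusted p = 0.0403 from limma) and was lost without any other library, with an adjusted p from 0.0875 to 0.139 from limma.

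The other 3 genes of the MXD family did not pass the test. MXD3, the member known for expression in S phase, had 2.11, 2.17 and 2.45 TPM with CsiRNA and 2.67, 2.34 and 2.69 TPM with NEAT1siRNA, where replicate 2 fell within the control range. Its log2 fold change was 0.14 (95% interval -0.06 to 0.34). MXI1 had 2.05, 1.9999 and 2.03 TPM with CsiRNA and 1.99, 2.70 and 2.08 TPM with NEAT1siRNA, so the higher mean rested on replicate 2. Without that library the log2 fold change of MXI1 was 0.0023, against 0.10 with all libraries. MXD1 had 1.81, 1.503 and 1.52 TPM with CsiRNA and 1.51, 1.92 and 1.54 TPM with NEAT1siRNA, with overlapping ranges and a log2 fold change of 0.02 (95% interval -0.18 to 0.23). The annotated span of MXD1 overlaps SNRNP27 on the same strand, and that of MXD3 overlaps RAB24 on the same strand and PRELID1 on the other. How reads in shared stretches were assigned is not given in the sources used here, so the MXD1 and MXD3 levels are uncertain.

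MNT, a repressor that is present in cycling and resting cells and competes with MYC for MAX, had 5.29, 5.04 and 6.35 TPM with CsiRNA and 7.48, 6.42 and 6.35 TPM with NEAT1siRNA. The groups met at the top of the control range, where CsiRNA replicate 3 and NEAT1siRNA replicate 3 were nearly equal. The log2 fold change of MNT was 0.24 (SE = 0.10, with an adjusted p of 0.111 from limma). MNT was called higher with voom on recovered reads (adjusted p = 0.0322), where 5 of the 10 genes were called beside 23% of all genes, and with a trend on GC content and length removed (adjusted p = 0.0285 from limma), where it was again 5 beside 22.8%. Without CsiRNA replicate 3 or NEAT1siRNA replicate 2, the adjusted p from limma was 0.0496 and 0.0498, and without each of the other libraries it ran from 0.148 to 0.368.

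MGA, a large protein with a T-box and a MAX-binding domain that anchors the Polycomb complex PRC1.6, had 11.6, 8.96 and 9.72 TPM with CsiRNA and 8.02, 7.36 and 7.21 TPM with NEAT1siRNA. The groups did not overlap, and CsiRNA replicate 1 was the highest library by more than 1 TPM. The mean decreased from 10.1 ± 1.34 to 7.53 ± 0.433 TPM (SD, n = 3 each), to 74.7% of the control. The log2 fold change of MGA was -0.37 (SE = 0.10, with an adjusted p of 0.0129 from limma). Its direction therefore differed from that of MXD4 within the group of MAX-binding repressors. The call was lost without CsiRNA replicate 1 (log2 fold change -0.28, adjusted p = 0.116 from limma) and without NEAT1siRNA replicate 3 (-0.34, adjusted p = 0.0653 from limma). The canonical MGA transcript has 12193 bases, the longest of the network. With a trend on GC content and length removed, the log2 fold change of MGA was smaller, at -0.30 (adjusted p = 0.00505 from limma). That fit called 22.8% of all genes tested, beside 14% in the reported one.

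**Figure D2:**
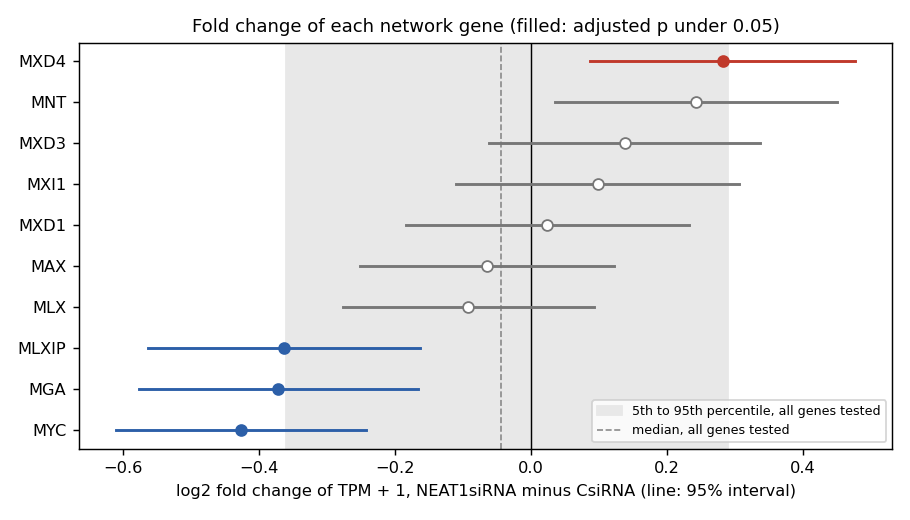
Log2 fold change of each network gene (points) with its 95% interval from limma (lines), on the log2(TPM + 1) scale. Filled points passed an adjusted p of 0.05, and the grey band holds the 5th to 95th percentile of all genes tested, from -0.36 to 0.29. MYC, MGA and MLXIP lay at or below the lower edge of the band, and MXD4 lay just inside its upper edge.

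The MLX branch changed on the side of MLXIP. MLXIP (MondoA) had 2.91, 2.75 and 3.23 TPM with CsiRNA and 2.24, 2.12 and 1.89 TPM with NEAT1siRNA, and each NEAT1siRNA value was below each control value. The mean decreased from 2.96 ± 0.241 to 2.08 ± 0.178 TPM (SD, n = 3 each), to 70.2% of the control, with a log2 fold change of -0.36 (SE = 0.10, with an adjusted p of 0.0128 from limma). At this low TPM the added 1 holds the value down, and with 0.1 added in its place the log2 fold change was -0.49. The call was lost without CsiRNA replicate 3 (adjusted p = 0.0673 from limma) and without NEAT1siRNA replicate 3 (adjusted p = 0.0797 from limma). MLX had 10.3, 10.1 and 10.3 TPM with CsiRNA and 9.39, 9.56 and 9.69 TPM with NEAT1siRNA. The MLX values did not overlap, but the distance was small, with a log2 fold change of -0.09 (95% interval -0.28 to 0.09, adjusted p = 0.558 from limma). The span of MLX overlaps that of PSMC3IP on the other strand, and the strand setting of the counting is not given in the sources used here. MLXIPL (ChREBP), the second MLX partner of this kind, did not exceed 0.0154 TPM in any library.

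Of 6 genes listed as targets of MondoA and MLX, 5 were tested, and 2 fell and 1 rose past the threshold, beside 8.98% lower and 4.99% higher over all genes tested. TXNIP, an inhibitor of glucose uptake and of thioredoxin, had 25.4, 23.0 and 22.7 TPM with CsiRNA and 13.1, 14.4 and 13.1 TPM with NEAT1siRNA. The gap between the groups was wider than the range within either. TXNIP fell to 57.2% of the control, with a log2 fold change of -0.76 (SE = 0.09, with an adjusted p of 2.89e-06 from limma), and the call held in 17 of 17 alternative fits. PFKFB3, a glycolytic regulator, decreased from 9.45 ± 0.799 to 6.96 ± 0.694 TPM (SD, n = 3 each; log2 fold change -0.39, adjusted p = 0.00756 from limma). ARRDC3, an arrestin relative of TXNIP, increased from 50.004 ± 2.97 to 67.7 ± 9.09 TPM (SD, n = 3 each; log2 fold change 0.42, adjusted p = 0.00420 from limma). The PFKFB3 call was lost without CsiRNA replicate 1 (adjusted p = 0.0613 from limma) and without NEAT1siRNA replicate 3 (0.0507 from limma). ARRDC4, a close relative of TXNIP, was under the filter with at most 0.0123 TPM. The list median was -0.28 over these 5 genes, beside -0.04 over all genes tested.

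Promoter sequence was read for 9 of the 10 network genes, in windows of 250 bases before to 50 bases after each start site from the RefSeq table (GRCh38.p14), MYC not being used. The E-box word CACGTG, which reads the same on both strands, was present in 3 of their 14 windows, those of MXD4, MNT and MLX, and in 9.69% of the 12027 windows of tested genes. The stretches are shown because MXD4 was the repressor called higher, MNT the one with the next largest positive fold change, and MLX the shared partner of the second branch. The E-box begins 238, 193 and 50 bases before the start site in MXD4, MNT and MLX. A pair of CACGNG words set 5 bases apart, the form of a carbohydrate response element, was searched on both strands. It was present in 0 of the 14 network windows, and in 14 of the 12027 windows of tested genes (0.116%), which include that of TXNIP, the gene with the largest fall among the MondoA targets. In TXNIP it begins 88 bases before the start site. Capitals mark the matching words, with the 5 bases between them in TXNIP, and a match of letters is not evidence of binding.
MXD4: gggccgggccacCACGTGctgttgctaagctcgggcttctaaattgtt
MNT: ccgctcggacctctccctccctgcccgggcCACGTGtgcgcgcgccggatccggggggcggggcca
MLX: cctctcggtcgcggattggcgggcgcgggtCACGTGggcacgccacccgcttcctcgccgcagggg
TXNIP: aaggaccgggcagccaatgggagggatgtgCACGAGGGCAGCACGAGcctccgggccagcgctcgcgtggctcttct
The stretches lie at chr4:2262312-2262359 (minus strand), chr17:2401218-2401283 (minus strand), chr17:42567020-42567085 (plus strand) and chr1:145996621-145996697 (minus strand) of GRCh38.p14, and each is written 5′ to 3′ along its gene.

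Ratios within a library do not depend on how that library was scaled. An effect of GC content that differs between libraries would not cancel in them. The canonical MYC transcript has 48.8% GC, and those of the repressors run from 42.5% (MXD1) to 65.6% (MXD3). The ratios were not taken with the GC trend removed. MYC stood at 1.37, 1.44 and 1.28 times the summed TPM of the 6 repressor genes (MXD1, MXD3, MXD4, MXI1, MNT and MGA) with CsiRNA and at 0.947, 1.0009 and 0.996 times with NEAT1siRNA. In TPM, MYC therefore exceeded the sum of its repressors in each control library and about equalled them in each NEAT1siRNA library. On the log2 scale the difference between the group means was -0.47, where the SD within a group was 0.088 and 0.044. Taken over recovered normalized counts in place of TPM, which are not divided by length and so give the long MGA transcript more weight, the ratio was below 1 in every library, at 0.811, 0.910 and 0.808 with CsiRNA and 0.655, 0.708 and 0.692 with NEAT1siRNA. The difference there was -0.30, and over the MXD family alone in TPM it was -0.67. This ratio was built from the network genes themselves and is given as a description, with no test. The summed TPM of the repressors hardly moved, from a mean of 27.0 to 27.6 TPM, as the higher MXD4 and MNT values were set against the lower MGA values. MYC made up 57.7% of the pooled TPM of MYC and the repressors with CsiRNA and 49.5% with NEAT1siRNA. Over the same groups, the share of MXD4 went from 8.58% to 12.5% and that of MGA from 15.8% to 13.8%.

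Set against single partners, MYC and MGA kept their proportion, with MYC at 3.34, 4.05 and 3.63 times MGA with CsiRNA and at 3.40, 3.82 and 3.60 times with NEAT1siRNA. Against MXD4, MYC went from 7.24, 6.60 and 6.38 times to 3.84, 3.83 and 4.204 times. Relative to MAX, MYC went from 1.53, 1.45 and 1.36 times to 1.09, 1.11 and 1.16 times. The MLXIP to MLX ratio was 0.282, 0.273 and 0.313 with CsiRNA and 0.239, 0.221 and 0.195 with NEAT1siRNA. Of these 4 ratios, the groups overlapped in MYC to MGA and did not overlap in the others.

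**Figure D3:**
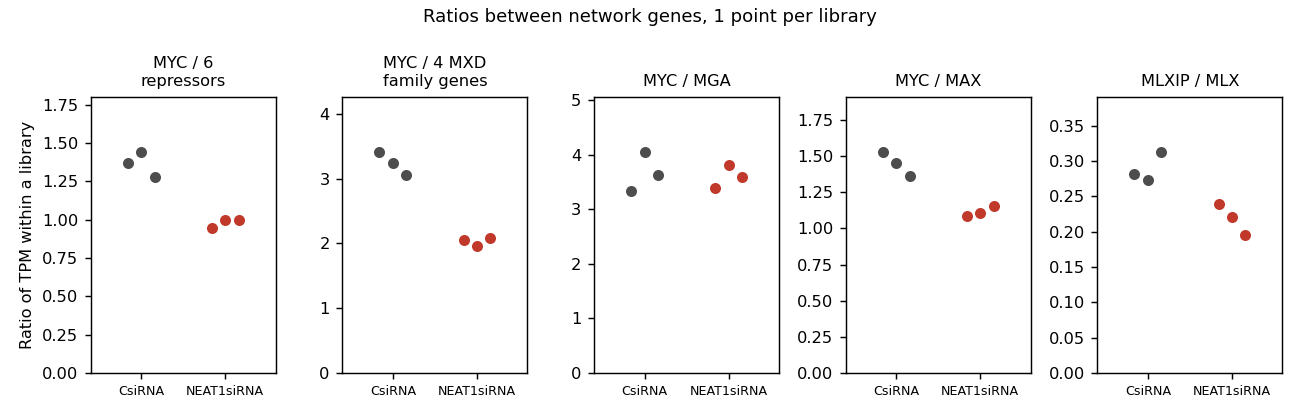
Ratio of TPM between network genes within each library, with 1 point per library and axes that start at 0. The MYC to repressor ratio ran from 1.28 to 1.44 with CsiRNA and from 0.947 to 1.0009 with NEAT1siRNA, whereas the MYC to MGA ratio overlapped.

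By level (TPM, per length), the order in control cells was MYC, MAX, MLX, MGA, MNT, MXD4, MLXIP, MXD3, MXI1 and MXD1, from a mean of 36.7 TPM to 1.61 TPM. Of the neighbours in this order, MLX and MGA overlapped in range, as did MNT and MXD4, and the others were separate. In NEAT1siRNA cells, MYC at 27.1 ± 1.10 TPM lay closer to MAX at 24.3 ± 1.62 TPM (SD, n = 3 each), although their ranges stayed separate. MGA, MXD4 and MNT followed MLX at means of 7.53, 6.87 and 6.75 TPM, where MGA overlapped MXD4 and MXD4 overlapped MNT, and this group was separate from MLX above and MXD3 below. MLXIP had moved below MXD3, from which its range was separate, and below MXI1, with which it overlapped. The spread between control replicates was widest for MGA, with a coefficient of variation of 13.3%, and narrowest for MXI1, at 1.31%.

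The mRNAs of proteins that MYC and its antagonists work through were mostly not called. The same was so for all genes tested, of which 14% were called. Of 15 genes of MYC co-activators and other partners, among them ZBTB17, 1 was lower, beside 8.98% of all genes tested. This was TRRAP, the scaffold that brings histone acetyltransferases to MYC, with 10.6, 7.32 and 8.16 TPM with CsiRNA and 6.93, 5.99 and 5.45 TPM with NEAT1siRNA (log2 fold change -0.44, adjusted p = 0.00982 from limma). Its call was lost without CsiRNA replicate 1 (adjusted p = 0.114 from limma) and without NEAT1siRNA replicate 3 (0.0751 from limma). The co-activator and partner list had a median of -0.15, and 13 of its 15 fold changes were negative, beside 6507 of 10721 over all genes tested. Of 15 genes of MYC protein turnover, PIM1 was higher and USP36 was lower, which is 13.3% of the list beside 14% of all genes tested. PIM1, a kinase that phosphorylates MYC, increased from 5.83 ± 0.516 to 8.05 ± 0.120 TPM (SD, n = 3 each; log2 fold change 0.41, adjusted p = 0.00416 from limma). USP36, a nucleolar deubiquitinase of MYC, decreased from 8.03 ± 0.552 to 6.12 ± 0.308 TPM (SD, n = 3 each; log2 fold change -0.34, adjusted p = 0.0155 from limma). The USP36 call was lost without CsiRNA replicate 1, CsiRNA replicate 3 or NEAT1siRNA replicate 3, with adjusted p-values from limma of 0.0709, 0.0583 and 0.0837. FBXW7, the ubiquitin ligase subunit for MYC, had a log2 fold change of -0.20 (adjusted p = 0.208 from limma).

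For the repressors, 0 of 14 genes of the SIN3 co-repressor complex were called by limma, 2 had an unadjusted p under 0.05, and 3 were called by voom. SIN3A, the scaffold that MXD proteins bind, had a mean of 11.9 TPM with CsiRNA and 12.1 TPM with NEAT1siRNA, and SIN3B had 4.67 and 4.26 TPM. Of 13 genes of the MGA complex PRC1.6, 0 were called by limma, 1 had an unadjusted p under 0.05, and 1 was called by voom. Over all 10721 genes tested, limma called 1498 (14%), 2942 had an unadjusted p under 0.05, and voom called 2465 (23%). The log2 fold changes of E2F6, PCGF6 and L3MBTL2 were -0.13, 0.01 and -0.26, with a mean of 7.66 TPM for PCGF6 in both groups. L3MBTL2, a reader of histone methylation in this complex, missed the threshold (adjusted p = 0.0626 from limma). It passed in 8 of 17 alternative fits. These included the 3 rescalings, voom (adjusted p = 0.0213 from voom) and the fit without NEAT1siRNA replicate 2 (0.0290 from limma). The medians of these lists were 0.05 and 0.01.

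Of 25 E-box targets that MYC induces, 22 were tested, of which 6 were lower and 0 higher past the threshold of limma, beside 8.98% and 4.99% of all genes tested. At an unadjusted p under 0.05 there were 9 genes, beside 2942 of 10721 over all genes tested. Voom called 7 of the 22, beside 23% of all genes tested. The list median was -0.14, beside -0.04 over all genes, and 20 of the 22 fold changes were negative, beside 6507 of 10721. CAD, the enzyme of the first steps of pyrimidine synthesis, fell most, from 12.2 ± 1.86 to 8.43 ± 1.09 TPM (SD, n = 3 each; log2 fold change -0.48, adjusted p = 0.00337 from limma). NOP16, a nucleolar protein of ribosome production, and POLR1B, a subunit of RNA polymerase I, each had a log2 fold change of -0.42 (adjusted p = 0.00241 and 0.00561 from limma). CDC25A, a phosphatase that opens S phase, had -0.40 (adjusted p = 0.00532 from limma). The call of POLR1B was lost without CsiRNA replicate 1 (adjusted p = 0.0582 from limma). Other well-known targets did not pass the test. ODC1, the rate-limiting enzyme of polyamine synthesis, had a log2 fold change of -0.21 (adjusted p = 0.165 from limma), and NCL (nucleolin) had -0.15 (adjusted p = 0.258 from limma). The E-box word was present in 9 of the 25 promoter windows of this list, beside 9.69% of the 12027 windows of tested genes. The list was itself chosen as E-box targets. By gene, 9 of the 20 list genes with a window had the word. Of the 6 called genes, 5 had a window but were not among those 9.

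Genes known to be repressed by MYC moved in both directions. Of 15 listed, 12 were tested, with 4 higher and 4 lower, beside 4.99% and 8.98% of all genes tested. Their middle value was a log2 fold change of 0.03, beside -0.04 over all genes. CDKN2B (p15) and CDKN1B (p27), inhibitors of cyclin-dependent kinases, rose. CDKN2B had 17.8, 16.4 and 15.99 TPM with CsiRNA and 23.7, 30.1 and 25.4 TPM with NEAT1siRNA (log2 fold change 0.62, adjusted p = 9.59e-05 from limma). CDKN1B had 36.8, 35.5 and 30.04 TPM with CsiRNA and 49.1, 59.6 and 47.5 TPM with NEAT1siRNA (log2 fold change 0.59, adjusted p = 0.000238 from limma). The groups were fully separated for both genes. GAS1, a growth arrest gene, and NDRG1, a stress-responsive gene, rose by log2 fold changes of 0.39 and 0.31 (adjusted p = 0.0107 and 0.0277 from limma). The NDRG1 call was lost without any 1 of the 3 CsiRNA libraries or NEAT1siRNA replicate 1, with adjusted p-values from limma between 0.0573 and 0.114. The 4 that fell were THBS1, an inhibitor of angiogenesis, at -0.59, GADD45A and GADD45B, growth arrest genes, at -0.51 and -0.37, and SAT1, an enzyme of polyamine breakdown, at -0.48. CDKN1A (p21), another inhibitor of cyclin-dependent kinases, had 3.04, 2.30 and 2.94 TPM with CsiRNA and 3.47, 3.54 and 3.35 TPM with NEAT1siRNA. These values were separated, but the log2 fold change of 0.25 did not pass the test (adjusted p = 0.0981 from limma). CDKN1A was called in 5 of 16 alternative fits. These included quantile normalization (adjusted p = 0.0213 from limma), centring on the median (0.0251 from limma) and voom (adjusted p = 0.0304 from voom). With 1 library left out, it was called in 0 of 6 fits.

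**Figure D4:**
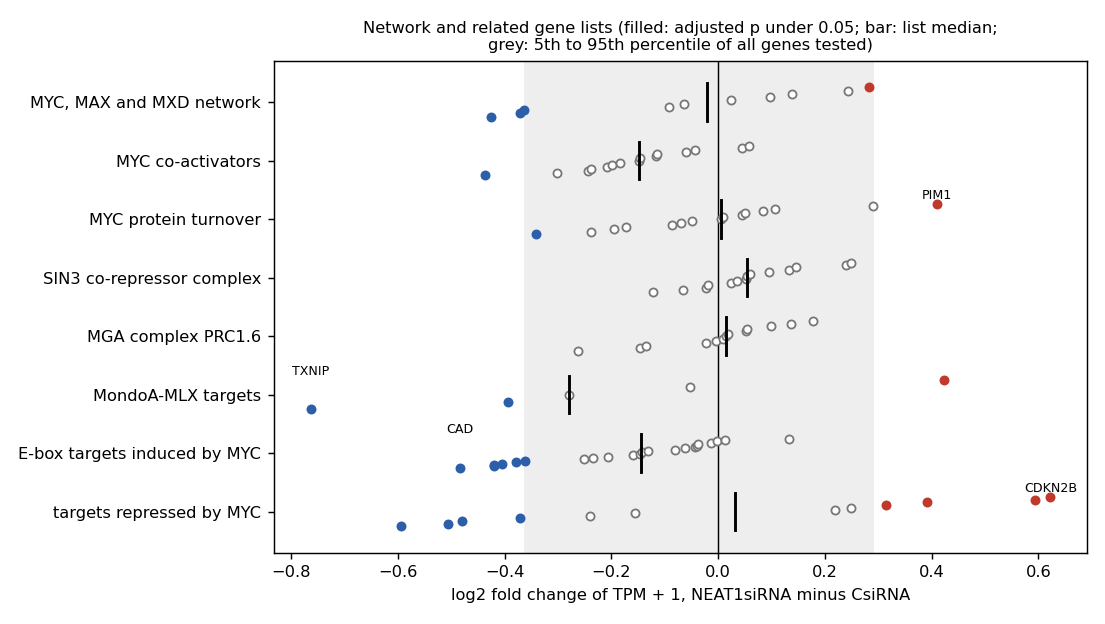
Log2 fold change of each tested gene in the network and in 7 related lists (points, filled where the adjusted p was under 0.05), with the list median (bar) and the 5th to 95th percentile of all genes tested (grey). TXNIP lay farthest to the left at -0.76 and CDKN2B farthest to the right at 0.62. The called genes of the MYC-induced list all lay to the left, whereas those of the MYC-repressed list lay on both sides.

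The expression of MYC was compared with that of 5065 other tested genes with a mean of at least 10 TPM, over the 6 libraries. RGMB, CTGF, AJUBA, TMEM2 and FJX1 had the highest Pearson correlation with MYC, from 0.998 to 0.999. All 5 genes were lower with NEAT1siRNA, with log2 fold changes of -0.66, -0.999, -0.45, -0.69 and -0.55. With 3 libraries in each group such values mostly reflect the step between the groups and are given as a description. MAX, the obligate partner of MYC, ranked 1962 on the same measure, with a correlation of 0.579.

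**Figure D5:**
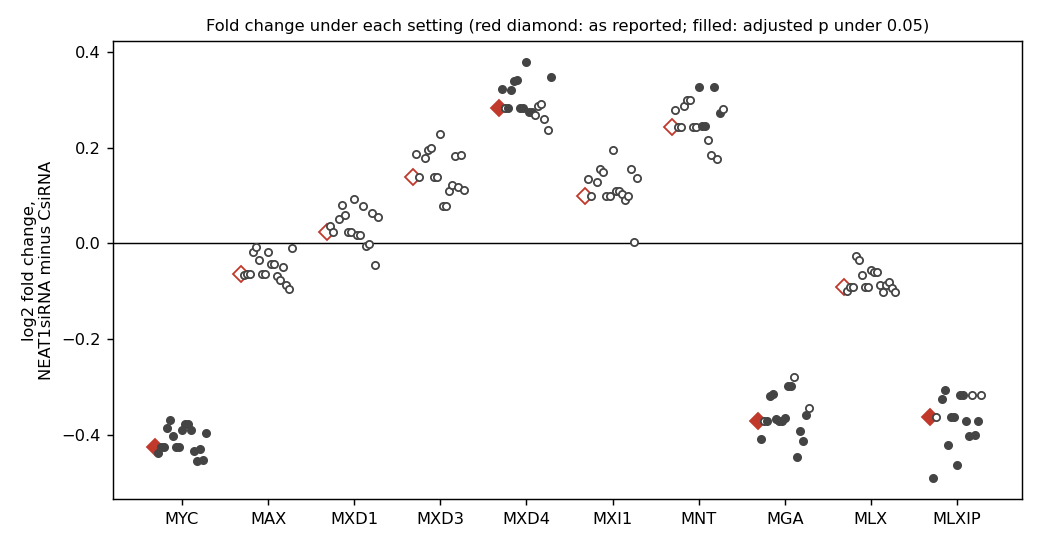
Log2 fold change of each network gene under the reported setting (red diamond) and 17 alternative fits (circles), filled where the adjusted p was under 0.05. MYC stayed filled throughout, between -0.45 and -0.37. MXD4 and MNT were positive throughout and filled in part of the fits.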

How the data were processed

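RNA was sequenced from 3 CsiRNA and 3 NEAT1siRNA cultures of BT-549 cells. Per the labels the authors used STAR, DESeq2 and the GRCh38 build. The aligner version, the counting program with its strand setting, and the gene lengths are not given in the sources used here. The deposited per-library values are TPM, computed by the authors. A second deposited table holds the authors' mean normalized count per gene (a signal averaged over the 6 libraries), which served to recover reads, and their fold changes, standard errors, statistics and p-values, which were not used. The study tested counts, but a count model does not serve TPM, so limma 3.58.1 (R 4.3.3) with an intensity trend was fitted to log2(TPM + 1) for genes with a mean of at least 1 TPM, with Benjamini-Hochberg adjustment and a threshold of 0.05.

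Reads were recovered by sharing the authors' normalized count of each gene among the 6 libraries. The shares followed TPM, with a weight and a size factor fitted for each library. Within 0.05 of a whole number lay 99.8% of values where the authors' mean was under 5, 98.5% from 5 to 50, 75% from 50 to 500 and 16.4% above 500. The recovered reads therefore served only as an alternative (voom), for depth and for describing the MYC to repressor ratio in normalized counts. The 4 short noncoding RNAs RN7SK, RN7SL1, RN7SL2 and RPPH1 took 64.4% to 68.1% of TPM. GC content and length (GENCODE, GRCh38) were found for 10424 of the 10721 tested genes (97.2%), and 22278 symbols of the table matched RefSeq as current and 783 as older symbols. The test was also run on simulated reads. These held no trend on GC content and no change as small as those of the called network genes, so that run does not cover such calls.

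The network genes and the related lists were chosen with earlier results of these data known. Named are all network genes, NEAT1, PVT1, MYCN, MYCL, MLXIPL, up to 4 called genes per direction in each list, a fixed set of list genes (TXNIP, ARRDC4, SIN3A, SIN3B, FBXW7, E2F6, PCGF6, L3MBTL2, ODC1, NCL and CDKN1A), and the 5 genes most like MYC. Alternatives were another pseudocount (0.1), filter, scaling, threshold and variance model, a replicate block, removal of a GC and length trend, and each library left out.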

Additional observations from a re-analysis of the deposited data

How the results depend on the processing

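Over the 41 named genes, 674 of 770 alternative values kept their direction and side of the threshold, 66 lost the call, 20 gained it and 10 changed sign, all in genes that were not called either way. With 1 library left out, the log2 fold change ran from -0.046 to 0.078 for MXD1 (negative without CsiRNA replicate 2, CsiRNA replicate 3 or NEAT1siRNA replicate 2), from -0.080 to 0.14 for PCGF6 (negative without the same libraries), from -0.0052 to 0.070 for SIN3A (negative without NEAT1siRNA replicate 2) and from -0.25 to 0.0074 for SIN3B (positive without NEAT1siRNA replicate 3). PCGF6 was also negative, at -0.020, with the GC and length trend removed, with or without the replicate block. The count of changed genes, 1498 as reported, was 505 with no filter on TPM, 2465 with voom on recovered reads, 2381 with the GC and length trend removed, 719 at an adjusted p under 0.01 and 314 where a log2 fold change of 0.5 or more in size was also required, and 759 to 2083 with 1 library left out (759 without CsiRNA replicate 1, 838 without NEAT1siRNA replicate 3). Of the network genes, 4 as reported, 1 was called with no filter and 1 at an adjusted p under 0.01 (MYC in both), 0 reached an absolute log2 fold change of 0.5, and 2 to 4 were called with 1 library left out. Of the list genes, 20 as reported, 8 were called with no filter, 33 with the GC and length trend removed and 5 at the larger fold change, and 14 to 28 with 1 library left out. The MYC to repressor ratio differed by -0.47 on the log2 scale as reported, by -0.67 over the MXD family alone, by -0.30 in recovered normalized counts, and by -0.52 to -0.43 with 1 library left out. With no filter, 18531 genes were tested. The cause of these shifts was not tested. The replicate block gave 1640 changed genes, 4 network genes and 24 list genes, and with the GC and length trend removed 2653, 5 and 36. The deviations of libraries with the same number correlated at -0.030, 0.25 and -0.11, and not every library correlated best with its own number. Whether the numbers pair the samples cannot be decided from these values, because the deviations also varied with GC content. Depth limits MXD1, MXD3 and MXI1 most, at means of 202, 161 and 177 reads.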
